A study of Saccharomyces cerevisiae with 6 samples.

Results

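The genes described here encode the nuclear pore complex of the budding yeast Saccharomyces cerevisiae and the transport receptors that carry cargo through it. Members were chosen by gene symbol: every NUP or KAP symbol followed by a number, together with genes taken by name (NIC96, NSP1, GLE1, GLE2, NDC1, POM34, POM152, MLP1, MLP2, SRP1, CRM1, CSE1, MSN5, MTR10, PSE1, SXM1 and NMD5). This gave 43 of the 4073 genes with a symbol on the array, 29 of them genes of pore proteins and 14 of transport receptors. The rule itself uses no measured value. ASM4, whose product is also called Nup59, was on the array but is no member, because its symbol lies outside the rule.

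The nuclear pore complex is a channel through the nuclear envelope, built from many copies of proteins called nucleoporins. An outer ring (the Y complex), an inner ring and a membrane ring form its scaffold. Nucleoporins rich in phenylalanine-glycine repeats line the central channel, filaments extend on the cytoplasmic side, and a basket extends into the nucleus. Importins and exportins, most of them members of the karyopherin family, bind cargo and the repeats, and the small GTPase Ran sets the direction of transport. In yeast the envelope stays closed during division, so pores are inserted into an intact membrane, and heat stress is known to alter both protein import and export of messenger RNA.

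The study asked how the heat response of gene expression differs without RPD3, which encodes a histone deacetylase that is part of the Rpd3L complex but not of that complex alone. The wild type was BY4741, a haploid laboratory strain that lacks HIS3, LEU2, MET17 and URA3 in working form. The mutant carried a deletion of RPD3 in that same background. For each strain, 3 independent cultures of 200 ml in YPD, a rich medium, were taken in mid-log phase, with cells either kept at 25 °C as control or exposed to 39 °C for 20 minutes.

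Each of the 6 arrays, 3 per strain, set heated cells against control cells of the same strain, and every value below is a log2 ratio, likely of heated over control RNA. A positive value means more RNA after heat and a difference of 1 is 2-fold. The labels put control RNA in Cy5 and heated RNA in Cy3 on all 6 arrays, so within a strain heat and dye cannot be told apart. A dye bias shared by the 6 arrays drops out of the comparison between strains. One basis for the sign is that 4 strong heat shock genes (HSP104, HSP12, HSP26 and SSA4) read between 3.65 and 8.75 on every array. RPD3 gives no check of the deletion. Both channels of a mutant array come from cells without it, and its mean ratio, 0.22 ± 0.034 over wild-type arrays (SD, n = 3) and -0.07 ± 0.040 over mutant arrays, lies near that of HIS3 and LEU2, which give no full transcript in either strain (0.15 and 0.18 over wild-type arrays, -0.14 and -0.11 over mutant arrays). Over all genes, described without a test, r was 0.952 to 0.980 for pairs of wild-type arrays, 0.851 to 0.956 for pairs of mutant arrays, and 0.504 to 0.853 for pairs of arrays from different strains. A ratio does not show whether control or heated RNA differs between the strains. In bulk RNA, fewer cells that hold a transcript and less of it per cell cannot be told apart.

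Each member was measured by 7 spots per array, and the SD between the spots of a member on an array had a median of 0.0436, against 0.0513 over all genes. "Rose" and "fell" are used only for genes that passed limma with an adjusted p under 0.05 (Benjamini-Hochberg, all 4073 genes). "Higher" and "lower in the mutant" are used in the same way for the strain difference, the mutant ratio minus the wild-type ratio. An error beside the mean of a strain is the SD of its 3 arrays, and one beside a strain difference is the standard error (SE) from the fit. The fit shares a single estimate of spread per gene between the strains. The p-values and intervals of a strain therefore do not rest on its own SD alone.

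In wild type, these genes fell more often than they rose after heat. Of 43 members, 27 fell (62.8%), against 36.3% of all genes, and 4 rose (9.30%), against 29.7% of all genes. The median member ratio was -0.46, while that of all genes was -0.05. The 4 that rose were KAP95, NUP42, MTR10 and CRM1. Without wild-type array 1, 2 members rose and 18 fell, and without wild-type array 2, 2 rose and 19 fell. With arrays centred on HIS3, LEU2, MET17 and URA3, which give no full transcript in either strain, 1 member rose and 33 fell.

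In the rpd3 deletion, falls were fewer and rises more frequent than in wild type. Here 16 members rose (37.2%), against 33.7% of all genes, and 12 fell (27.9%), against 31.9% of all genes, so that both shares lay near those of all genes. The median member ratio was 0.04 and that of all genes 0.00. These counts changed when single arrays were left out: 10 members rose without mutant array 1, and 7 fell without mutant array 1 or without mutant array 2. The split also moved with the scaling: 19 rose and 6 fell with arrays centred on HIS3, LEU2, MET17 and URA3, and 12 rose and 17 fell with the trend of the ratios with gene length removed. Of the 43 members, 11 fell in both strains (25.6%, against 21.0% of all genes), 3 rose in both (KAP95, MTR10 and CRM1, 6.98%, against 18.5% of all genes) and 5 were called in neither strain (11.6%, against 15.1%). The count that fell in both was 5 without mutant array 1, and 7 without mutant array 2 or wild-type array 1.

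The strain difference went one way among the calls. In all, 20 members had a higher heat ratio in the mutant (46.5%, against 24.8% of all genes) and 0 had a lower one, against 21.0% of all genes. At an unadjusted p under 0.05 these counts were 22 and 0. The median strain difference was 0.32 for members and 0.02 for all genes, and 33 of the 43 members had a positive one. Without mutant array 1 the count of members higher in the mutant was 10, and without wild-type array 1 or wild-type array 2 it was 11. Quantile normalization between arrays gave 3 members lower in the mutant, and removing the trend of the ratios with gene length gave 4, as detailed with gene length further on.

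The arrays of the 2 strains separated for 25 members. In 24 of them all 3 mutant arrays lay above all 3 wild-type arrays, which held for 31.1% of all genes, and in 1, NUP84, all 3 lay below, which held for 27.3% of all genes. NUP84, a Y complex gene, differed little in size, at 0.10, 0.10 and 0.07 on wild-type arrays 1, 2 and 3, against -0.01, 0.05 and -0.01 on the mutant arrays in that order.

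**Figure D1:**
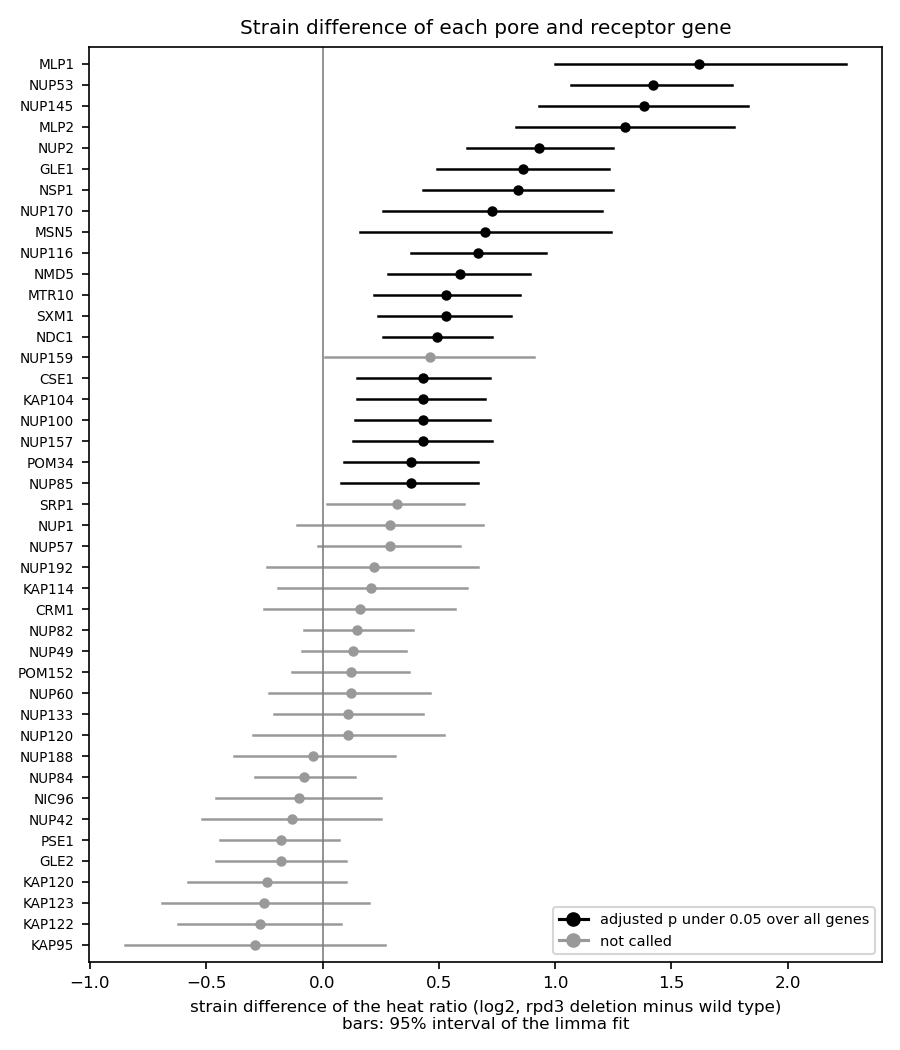
Strain difference of the heat ratio (mutant minus wild type, log2) for each of the 43 members, ordered by that difference, with the 95% interval of the fit as bars. The 20 called members all lie to the right of 0, MLP1 farthest at 1.62, and the intervals of the 23 members that were not called run from -0.85 to 0.91.

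A smaller set changed in opposite directions in the 2 strains. MLP1, MLP2, NUP145, NUP53, NUP2, GLE1 and NSP1 fell in wild type and rose in the mutant, which is 7 of 43 members (16.3%, against 4.93% of all genes). All 7 were pore genes. All 7 were also called for the strain difference, as were all 201 such genes on the array. This count is sensitive to single arrays: it was 2 without wild-type array 1 or wild-type array 2, and 4 without mutant array 1 or mutant array 3. Leaving out wild-type array 1 or 2 ended the wild-type call of MLP1, MLP2 and NUP145, leaving out mutant array 1 or 3 ended the mutant call of NUP2, GLE1 and NSP1, and NUP53 lost neither call under any alternative that was run. GLE1 and NSP1 also lost the mutant call without wild-type array 1 or 2, and NSP1 without wild-type array 3. Their mutant values stayed at 0.30 and 0.33 there, since wild-type arrays enter a mutant call only through the shared estimate of spread. With the trend of the ratios with gene length removed, the count was 5. There GLE1 (0.23, adjusted p = 0.0962) and NSP1 (0.17, adjusted p = 0.162) lost the mutant call. With spot medians, quantile normalization or robust moderation the count was 6, as NSP1 lost the mutant call.

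**Figure D2:**
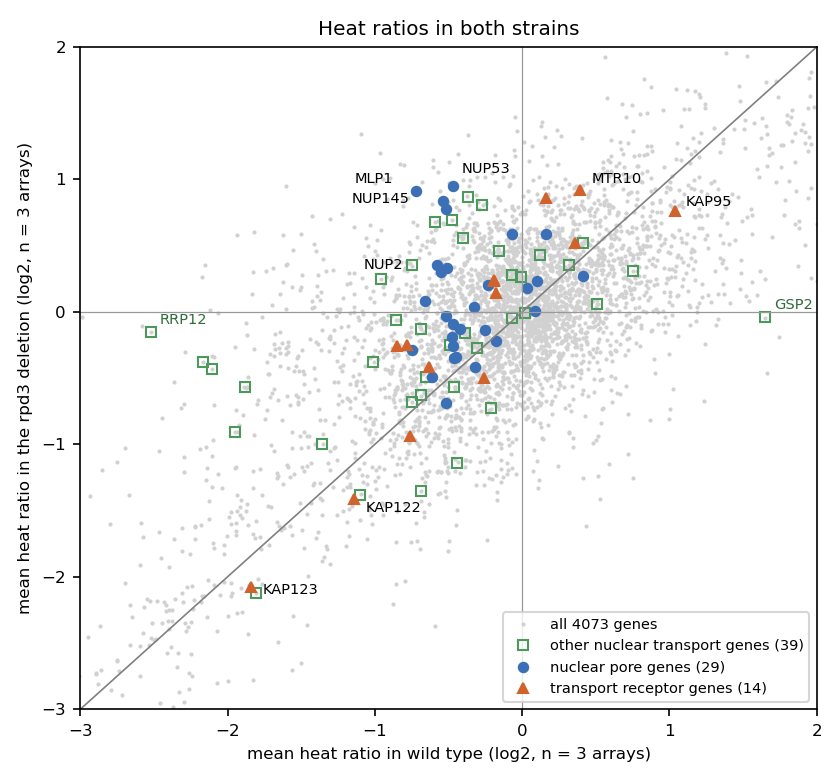
Mean heat ratio in the mutant (vertical axis, log2) against that in wild type (horizontal axis, log2) for the 43 members over all genes with a symbol in grey, drawn between -3 and 2 on each axis so that genes beyond these limits are not shown. MLP1, NUP53, NUP145 and MLP2 stand in the upper left, where wild type is negative and the mutant positive, whereas KAP123 and KAP122 lie low in both strains and KAP95 high in both.

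The nuclear basket held the largest median strain difference of the 8 role groups, at 0.93. The basket is the set of filaments on the nuclear face where messenger ribonucleoproteins dock before export. All 5 of its genes fell in wild type (median -0.52), while in the mutant 3 rose and 1 fell (median 0.35). MLP1, MLP2 and NUP2 were higher in the mutant, and NUP1 and NUP60 were not called.

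MLP1 and MLP2 encode the long coiled-coil proteins that form the basket filaments. The ratio of MLP1 was -0.81, -1.11 and -0.22 on wild-type arrays 1, 2 and 3, against 0.87, 0.54 and 1.31 on the mutant arrays in that order. Every wild-type array was below 0 and every mutant array above it, with wild-type array 3 nearest to 0. MLP1 thus fell in wild type (-0.72 ± 0.45, SD, n = 3, adjusted p = 0.0116) and rose in the mutant (0.91 ± 0.39, adjusted p = 0.00411). Its strain difference of 1.62 ± 0.27 (SE, 95% interval 1.00 to 2.25, adjusted p = 0.00342), or 3.08-fold, was the largest among the members.

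MLP2 followed the same order over the arrays. It read -0.64, -0.83 and -0.09 in wild type, against 0.69, 0.67 and 0.98 in the mutant, so the groups did not overlap and wild-type array 3 was again nearest to 0. Its strain difference was 1.30 ± 0.20 (SE, adjusted p = 0.00266). MLP2 is also the member with the widest spread between spots, an SD of up to 0.545 within an array. The 2 filament genes differed by -0.20 in wild type (MLP1 minus MLP2), against 0.13 in the mutant, where the gap had an SD over arrays of 0.077 in wild type and 0.24 in the mutant. The gap was negative on all 3 wild-type arrays and of either sign on the mutant arrays.

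NUP2 encodes a mobile basket nucleoporin with repeats that helps release import cargo. It read -0.57, -0.65 and -0.53 in wild type, against 0.40, 0.11 and 0.55 in the mutant, with a tight wild-type group and no overlap. The strain difference was 0.93 ± 0.13 (SE, adjusted p = 0.00203). NUP1 and NUP60, which encode basket proteins that anchor to the pore at the nuclear envelope, behaved otherwise: NUP1 fell in wild type (-0.42 ± 0.29) and stood at -0.13 ± 0.19 without a call in the mutant, while NUP60 fell in both strains (-0.46 ± 0.042 and -0.35 ± 0.27). Their strain differences, 0.29 with an interval of -0.11 to 0.69 and 0.12 with one of -0.23 to 0.46, were not called. NUP1 lost its wild-type call without wild-type array 3, at -0.26, and NUP60 its mutant call without mutant array 1 or 2.

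**Figure D3:**
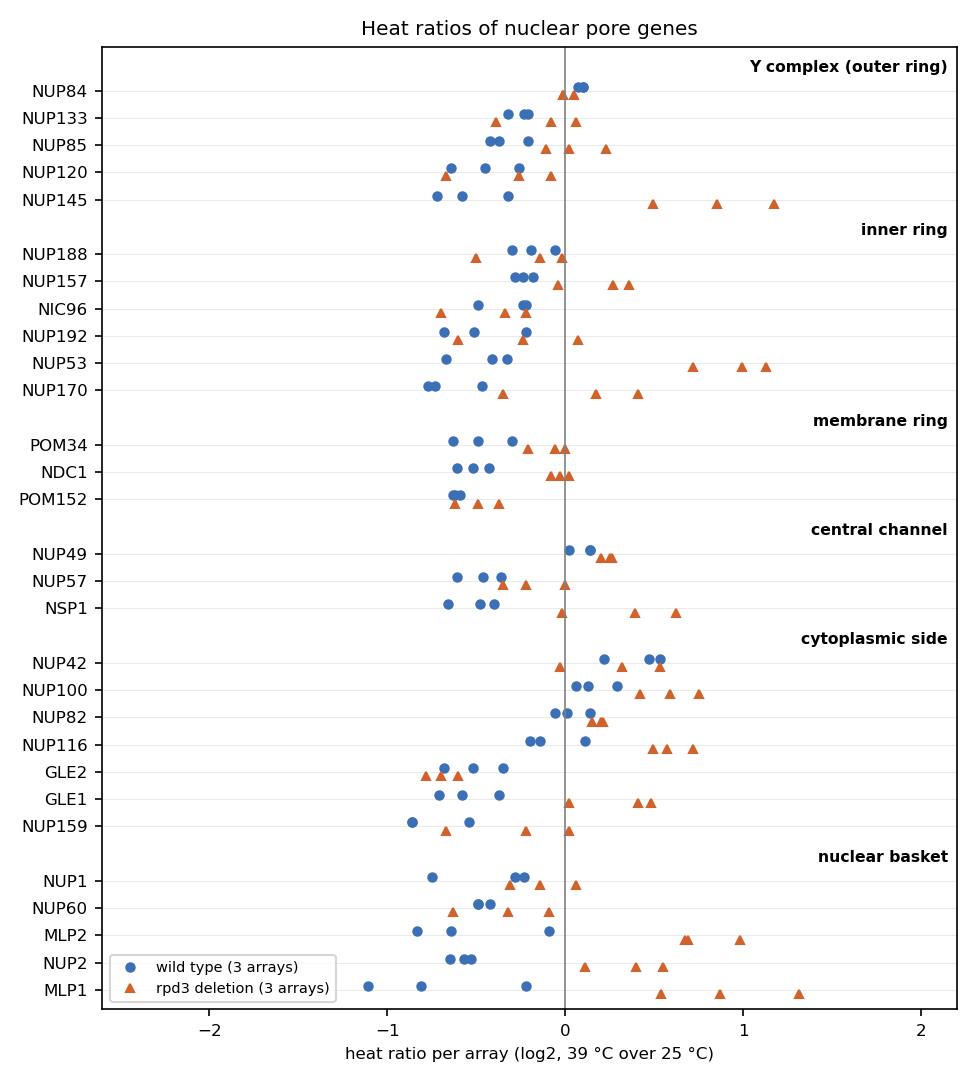
Heat ratio (log2) of the 29 pore genes on each of the 3 wild-type and 3 mutant arrays, grouped by role, 1 point per array. In MLP1, MLP2, NUP2, NUP145 and NUP53 the mutant points lie above 0 and the wild-type points below it with no overlap, while NUP60, POM152 and NIC96 show overlapping groups below 0.

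The Y complex, the outer ring scaffold, was split between NUP145 and its other genes. Of 5 members, 4 fell in wild type (median -0.33). In the mutant 1 rose and 1 fell (median 0.01), and 2 had a higher ratio than in wild type. NUP145 encodes a precursor that cleaves itself into a repeat nucleoporin and a Y complex subunit. Its ratio was -0.58, -0.72 and -0.32 on wild-type arrays 1, 2 and 3, against 0.85, 0.49 and 1.17 on the mutant arrays in that order, again without overlap. It fell in wild type (-0.54 ± 0.20, adjusted p = 0.00891), rose in the mutant (0.84 ± 0.34, adjusted p = 0.00118) and differed by 1.38 ± 0.19 (SE, 95% interval 0.93 to 1.83, adjusted p = 0.00185).

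The other Y complex members moved less between strains. NUP85 fell in wild type (-0.33 ± 0.11), stood at 0.04 ± 0.17 in the mutant and was higher there by 0.38 ± 0.13 (SE, adjusted p = 0.0440), a call lost under 7 of 15 alternatives. NUP120 fell in both strains (-0.45 ± 0.19 and -0.34 ± 0.30). NUP133 fell in wild type at the edge of the threshold (-0.25 ± 0.058, adjusted p = 0.0499) and was not called in the mutant (-0.14 ± 0.23), and its wild-type call was lost under most alternatives. NUP120 and NUP85 lost their wild-type calls without wild-type array 1 or 2. NUP120 lost its mutant call without mutant array 1 or 2 or wild-type array 1 or 2. NUP84 was called in neither strain.

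The inner ring anchors the channel nucleoporins to the scaffold. Of its 6 members, 4 fell in wild type (median -0.39), 1 rose and 1 fell in the mutant (median -0.07), and 3 were higher in the mutant: NUP53, NUP170 and NUP157. NUP53 encodes a linker nucleoporin that also binds the importin Kap121, the product of PSE1. It read -0.33, -0.67 and -0.41 in wild type, against 0.99, 0.72 and 1.13 in the mutant. All mutant arrays lay well above all wild-type arrays, and the mutant mean, 0.95 ± 0.21 (adjusted p = 0.00017), was the highest of all members in that strain. The strain difference was 1.42 ± 0.15 (SE, 95% interval 1.07 to 1.76), with the smallest adjusted p of any member, 0.000781.

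NUP53 has a duplicate in the yeast genome, ASM4, which is no member. ASM4 read 0.10, 0.14 and 0.22 in wild type, against 0.15, 0.32 and 0.44 in the mutant, so its groups overlapped. Like NUP53 it rose in the mutant (0.30 ± 0.15, adjusted p = 0.0119), but it was not called in wild type. Its strain difference of 0.15 (95% interval -0.11 to 0.41) was not called. NUP53 stood 0.62 below ASM4 in wild type (NUP53 minus ASM4, -0.62) and 0.65 above it in the mutant.

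NUP157 and NUP170 are another duplicate pair, encoding large scaffold nucleoporins of the inner ring. NUP170 read -0.77, -0.73 and -0.47 in wild type, against 0.17, -0.35 and 0.41 in the mutant. NUP157 read -0.24, -0.28 and -0.18 in wild type, against 0.27, -0.04 and 0.36 in the mutant. Both were lowest in the mutant on array 2, and in neither gene did the strains overlap. NUP170 fell in wild type and was higher in the mutant by 0.73 ± 0.20 (SE, adjusted p = 0.0221). NUP157 was called in neither strain alone but was higher in the mutant by 0.43 ± 0.13 (adjusted p = 0.0289), a call lost under 6 of 15 alternatives. The gap between the pair (NUP157 minus NUP170) was 0.42 in wild type, against 0.12 in the mutant.

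NUP192, NUP188 and NIC96 encode the remaining scaffold proteins of the inner ring, and their strain differences were small. NUP192 fell in wild type (-0.47 ± 0.23) and stood at -0.26 ± 0.33 in the mutant. NIC96 fell in both strains (-0.32 ± 0.15 and -0.42 ± 0.25), and NUP188 was called in neither (-0.18 ± 0.12 and -0.22 ± 0.25). Their strain differences ran from -0.10 to 0.22, and none was called. NUP192 lost its wild-type call without wild-type array 1 or 2. NIC96 lost its wild-type call without any 1 of the wild-type arrays or mutant array 1.

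The membrane ring holds the integral membrane proteins that anchor the pore in the envelope. All 3 of its genes fell in wild type (median -0.52). In the mutant POM152 fell (-0.49 ± 0.13), as in wild type (-0.61 ± 0.022), whereas NDC1 and POM34 stood at -0.03 ± 0.050 and -0.09 ± 0.11 without a call. NDC1, whose protein is shared with the spindle pole body, was higher in the mutant by 0.49 ± 0.10 (SE, adjusted p = 0.00702), and POM34 by 0.38 ± 0.12 (adjusted p = 0.0387). The call of POM34 was lost under 6 of 15 alternatives.

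The central channel trio, NSP1, NUP49 and NUP57, encodes repeat nucleoporins that form one complex, yet their ratios differed. NSP1 read -0.66, -0.48 and -0.40 in wild type, against 0.39, -0.02 and 0.62 in the mutant. The groups did not overlap, although mutant array 2 stood near 0. NSP1 was higher in the mutant by 0.84 ± 0.18 (SE, adjusted p = 0.00809). Its rise in the mutant was at the edge of the threshold (0.33 ± 0.33, adjusted p = 0.0484). NUP57 fell in wild type (-0.48 ± 0.13) and was not called in the mutant (-0.19 ± 0.18). NUP49 was not called in wild type (0.10 ± 0.072) and rose slightly in the mutant (0.23 ± 0.033), a call lost without mutant array 1 or 3. The wild-type call of NSP1 was lost without wild-type array 1.

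The cytoplasmic side carries the filaments on which messenger ribonucleoproteins are remodelled as they leave the pore. Of its 7 genes, 1 rose and 3 fell in wild type (median -0.07), while 3 rose and 1 fell in the mutant (median 0.27). GLE1, NUP116 and NUP100 were higher in the mutant. GLE1 encodes the activator of the export helicase Dbp5. It read -0.58, -0.71 and -0.37 in wild type, against 0.41, 0.02 and 0.48 in the mutant, with no overlap. Its strain difference was 0.86 ± 0.16 (SE, adjusted p = 0.00495), and its rise in the mutant was small (0.30 ± 0.25, adjusted p = 0.0429).

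NUP100 and NUP116 are a duplicate pair of repeat nucleoporins. NUP100 read 0.06, 0.13 and 0.29 in wild type, against 0.59, 0.42 and 0.75 in the mutant. NUP116 read -0.14, -0.20 and 0.11 in wild type, against 0.57, 0.49 and 0.72 in the mutant. Neither was called in wild type, both rose in the mutant to the same mean of 0.59, and the strains did not overlap in either gene. The strain difference was 0.43 ± 0.12 (SE, adjusted p = 0.0272) for NUP100 and 0.67 ± 0.12 (adjusted p = 0.00521) for NUP116.

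The remaining genes of this side went different ways. NUP42, which encodes a partner of Gle1 known from heat-shock messenger RNA export, read 0.47, 0.53 and 0.22 in wild type, against 0.32, 0.53 and -0.03 in the mutant, with overlapping groups. It rose in wild type (0.41 ± 0.16, adjusted p = 0.0162), a call lost without wild-type array 1 or 2. It was not called in the mutant (0.27 ± 0.28, adjusted p = 0.0714), and its strain difference of -0.13 (95% interval -0.52 to 0.25) was not called. GLE2, whose product binds Nup116, fell in both strains (-0.52 ± 0.16 and -0.69 ± 0.093). NUP159, the docking site of Dbp5, fell in wild type (-0.75 ± 0.19) and stood at -0.29 ± 0.35 in the mutant. NUP82, a scaffold of the filaments, was called in neither strain (0.03 ± 0.10 and 0.18 ± 0.031).

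The wild-type means of the 14 receptors ran from -1.84 to 1.04, and those of the 29 pore genes from -0.75 to 0.41. Falls in both strains were seen in 6 receptors (KAP114, KAP122, KAP123, NMD5, PSE1 and SXM1) and 5 pore genes (NIC96, NUP60, NUP120, GLE2 and POM152). These were 42.9% of the receptors and 17.2% of the pore genes, against 21.0% of all genes. In wild type 3 receptors rose and 6 fell (median -0.23). In the mutant 6 rose and 7 fell (median -0.06), and 6 had a higher ratio than in wild type. For pore genes these counts were 1 and 21 in wild type (median -0.47), 10 and 5 in the mutant (median 0.04), and 14 higher in the mutant.

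**Figure D4:**
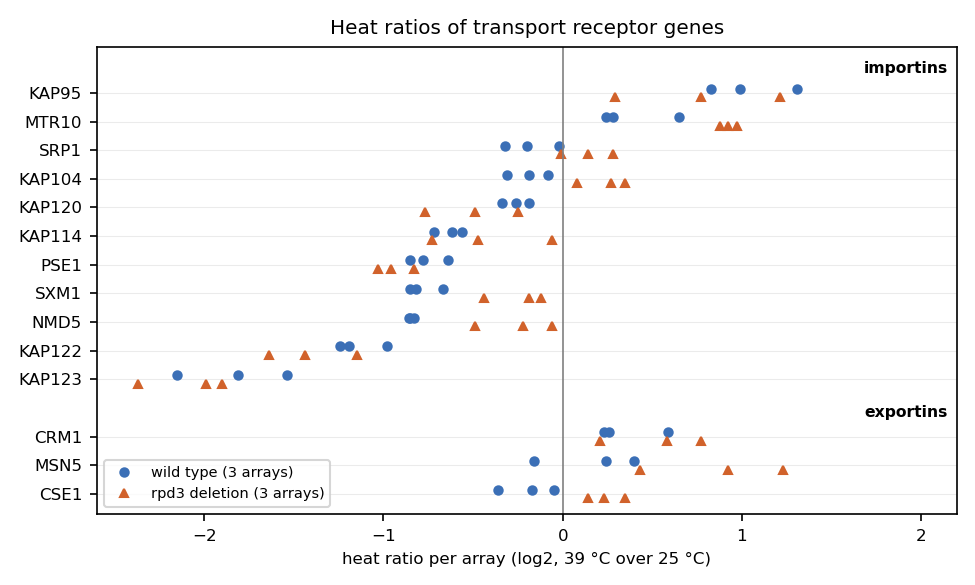
Heat ratio (log2) of the 14 transport receptor genes on each of the 3 wild-type and 3 mutant arrays, grouped into importins and exportins, 1 point per array. KAP123 lies lowest in both strains, with a mean of -1.84 in wild type and -2.08 in the mutant, KAP95 lies above 0 on all 6 arrays, and the mutant points of NMD5, SXM1, MTR10 and MSN5 lie above all their wild-type points.

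Importins bind cargo in the cytoplasm and release it in the nucleus when Ran carries GTP. Of 11 importin genes, 2 rose and 6 fell in wild type (median -0.63), 3 rose and 7 fell in the mutant (median -0.26), and 4 were higher in the mutant. KAP123 encodes an importin of ribosomal proteins and histones and had the lowest ratio of all members. It read -1.81, -1.54 and -2.15 in wild type, against -1.90, -2.37 and -1.99 in the mutant, so every array was far below 0 and the groups overlapped. KAP123 fell 3.57-fold in wild type (-1.84 ± 0.30, adjusted p = 1.95e-05) and 4.24-fold in the mutant (-2.08 ± 0.25, adjusted p = 2.22e-05), with a strain difference of -0.25 ± 0.19 (SE, 95% interval -0.69 to 0.20, adjusted p = 0.308).

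KAP122 and PSE1 also fell strongly in both strains. KAP122, whose product imports transcription factor IIA, read -1.19, -0.98 and -1.24 in wild type, against -1.44, -1.64 and -1.15 in the mutant. PSE1, which encodes an importin of ribosomal proteins and many other cargoes, read -0.85, -0.64 and -0.78 in wild type, against -0.96, -1.03 and -0.83 in the mutant. The groups overlapped slightly in both genes. The strain difference was -0.27 (95% interval -0.62 to 0.08) for KAP122 and -0.18 (-0.44 to 0.07) for PSE1, and neither was called. KAP123 and PSE1 overlap in cargo, and PSE1 stood above KAP123 by 1.08 in wild type, against 1.14 in the mutant.

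NMD5 and SXM1 fell in both strains but less in the mutant. NMD5 encodes an importin whose cargoes include stress-activated regulators, and SXM1 one that imports ribosomal proteins and Lhp1. NMD5 read -0.86, -0.83 and -0.85 in wild type, against -0.22, -0.49 and -0.06 in the mutant, the closest agreement of any member over wild-type arrays (SD 0.015). SXM1 read -0.85, -0.67 and -0.82 in wild type, against -0.19, -0.44 and -0.12 in the mutant. In both genes all mutant arrays lay above all wild-type arrays. The strain differences were 0.59 ± 0.13 (SE, adjusted p = 0.00983) and 0.53 ± 0.12 (adjusted p = 0.0123). Their small falls in the mutant were lost as calls without mutant array 1 or 2 and without some wild-type arrays.

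KAP95 and SRP1 encode the importin beta and importin alpha that together import cargo with classical localization signals, and their ratios differed. KAP95 read 1.31, 0.99 and 0.83 in wild type, against 0.77, 1.21 and 0.29 in the mutant, above 0 on all 6 arrays and with overlapping groups. It rose 2.06-fold in wild type (1.04 ± 0.25, adjusted p = 0.00108), the highest wild-type value among members. In the mutant it rose 1.69-fold (0.76 ± 0.46, adjusted p = 0.00569). Its strain difference of -0.29 ± 0.24 (SE, 95% interval -0.85 to 0.27, adjusted p = 0.345) was the lowest among members and was not called. SRP1, at -0.18 ± 0.15 in wild type against 0.14 ± 0.15 in the mutant, was called in neither strain nor for the difference.

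MTR10 rose in both strains and rose more in the mutant. Its product imports the messenger RNA-binding protein Npl3 and takes part in the return of transfer RNA to the nucleus. It read 0.28, 0.24 and 0.65 in wild type, against 0.92, 0.88 and 0.97 in the mutant, with no overlap and closely matched mutant arrays. The strain difference was 0.53 ± 0.13 (SE, adjusted p = 0.0160). KAP104, which encodes the importin of the messenger RNA-binding proteins Nab2 and Hrp1, was not called in wild type (-0.19 ± 0.11), rose slightly in the mutant (0.23 ± 0.14) and was higher there by 0.43 ± 0.12 (adjusted p = 0.0228). The mutant call and the strain difference of KAP104 were lost without mutant array 1 or 3 or wild-type array 1 or 2. With the length trend removed its mutant value was 0.07 (adjusted p = 0.386), and with quantile normalization 0.20 (adjusted p = 0.0507).

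KAP120 and KAP114 complete the importins. KAP120 read -0.19, -0.26 and -0.34 in wild type, against -0.49, -0.77 and -0.25 in the mutant, with overlapping groups. It was not called in wild type (adjusted p = 0.0543), fell in the mutant (-0.50 ± 0.26, adjusted p = 0.00385) and had an uncalled strain difference of -0.24 (95% interval -0.58 to 0.10). KAP114, which encodes an importin of the TATA-binding protein and histones, fell in both strains (-0.63 ± 0.077 and -0.42 ± 0.34). Its mutant call was lost without mutant array 1 or 2.

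All 3 exportin genes among the members rose in the mutant (median 0.52), and 1 rose in wild type (median 0.16). LOS1, the gene of a transfer RNA exportin outside the member rule, fell in both strains (-0.75 ± 0.078 and -0.68 ± 0.25). Its strain difference of 0.06 (95% interval -0.27 to 0.39) was not called. CRM1 encodes the main exportin of proteins with leucine-rich export signals. It rose in both strains (0.36 ± 0.20 and 0.52 ± 0.28), and its strain difference of 0.16 (95% interval -0.25 to 0.57) was not called. The wild-type call of CRM1 was lost without any 1 of the wild-type arrays and without mutant array 1. MSN5 exports phosphorylated proteins, among them the stress transcription factor Msn2. It read 0.24, -0.16 and 0.40 in wild type, against 0.92, 0.43 and 1.23 in the mutant, where the lowest mutant array lay just above the highest wild-type array. It was not called in wild type, rose in the mutant (0.86 ± 0.41, adjusted p = 0.00250) and differed by 0.70 ± 0.23 (SE, adjusted p = 0.0409). CSE1, which returns importin alpha to the cytoplasm, was not called in wild type (-0.19 ± 0.16), rose slightly in the mutant (0.24 ± 0.10) and was higher there by 0.43 ± 0.12 (adjusted p = 0.0233). The mutant call of CSE1 was lost without mutant array 1 or 3 or wild-type array 1, and its strain difference without these or wild-type array 2. With the length trend removed, CSE1 stood at 0.07 in the mutant (adjusted p = 0.408) with a strain difference of 0.28 (adjusted p = 0.0605).

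For the 23 members with no call for the strain difference, the 95% intervals lay between -0.85 and 0.91, so a difference of 2-fold lies outside each of them, while smaller differences do not. Among the 20 called members, 10 kept the call under every alternative in which they were tested: GLE1, MLP1, MLP2, NDC1, NMD5, NSP1, NUP116, NUP145, NUP2 and NUP53. In MLP2 and NSP1 that leaves out the filter on spot spread, which removed both. A called difference of at least 2-fold in favour of the mutant was found in 4 members, MLP1, NUP53, NUP145 and MLP2 (9.30%, against 7.27% of all genes), a share near that of all genes. The other 10 called members lost the call under 2 to 7 of 15 alternatives, all 10 of them without mutant array 1. Removing the length trend ended it for CSE1, NUP85, NUP100 and NUP157, and centring on all genes or quantile normalization ended it for NUP85 and POM34.

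The members' values moved together over the mutant arrays. Mutant array 3 was the highest of the 3 mutant arrays for 36 of 43 members and mutant array 2 the lowest for 36. In wild type, array 3 was the highest for 26. The members' median was -0.36, -0.45 and -0.26 on wild-type arrays 1, 2 and 3, against 0.02, -0.02 and 0.07 on the mutant arrays in that order. The medians of all genes stayed between -0.07 and 0.02. The 4 heat shock genes had the opposite order, highest on mutant array 2 and lowest on mutant array 3, where HSP12 for example read 8.75 and 5.06. The part of this array order in the members' results was not tested, beyond the counts given without each array.

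These genes are long, and the strain difference had a weak trend with length. Coding length (RefSeq, assembly R64) ran from 900 to 5628 bases with a median of 2919, against 1338 for all genes, and 40 of the 43 members were longer than the median gene. Across 4065 genes with a length, the strain difference and log2 length had r = 0.186, and across the 43 members r = 0.189, given as descriptions because genes on the same arrays are not independent. Among the genes of 2031 bases or more, the longest of 4 equal groups, which held 33 members, the median strain difference was 0.17 for all genes and 0.38 for the members. With the trend removed, 16 members were higher in the mutant and 4 lower (KAP120, KAP122, NUP188 and PSE1).

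**Figure D5:**
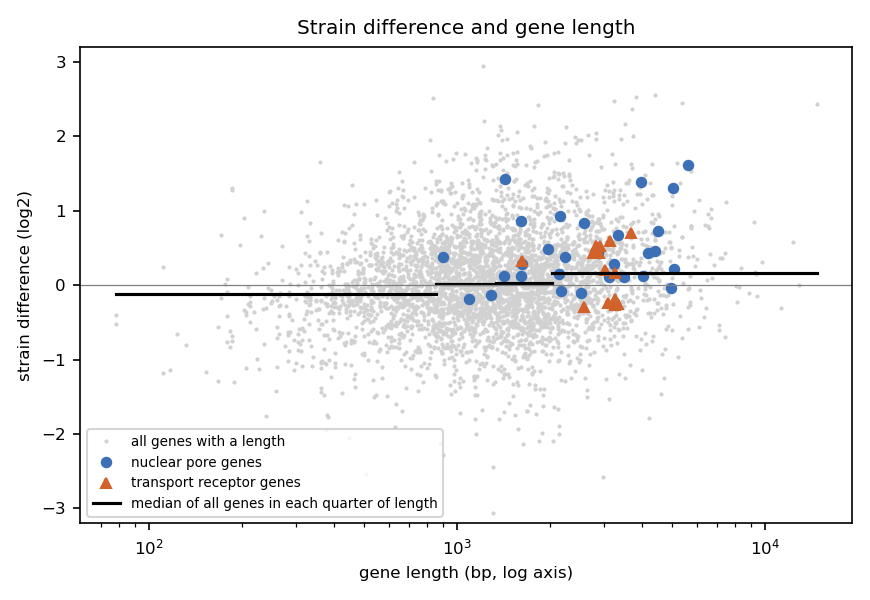
Strain difference of the heat ratio (log2) against coding length (bases, log axis) for all genes in grey and the 43 members in colour. Members sit at the long end, at a median of 2919 bases against 1338, and MLP1 and MLP2 are both among the longest and the most different.

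Other genes of nuclear transport that lie outside the member rule gave a similar picture in wild type. Of a list of 50, 39 were on the array with a symbol. In wild type 5 rose (12.8%, against 29.7% of all genes) and 27 fell (69.2%, against 36.3%), with a median of -0.48. In the mutant 11 rose (28.2%, against 33.7% of all genes) and 14 fell (35.9%, against 31.9%), shares near those of all genes, with a median of -0.13. For the strain difference, 15 were higher (38.5%, against 24.8% of all genes) and 4 lower (10.3%, against 21.0%) in the mutant (median difference 0.27). GSP2, 1 of 2 genes of the yeast Ran GTPase, read 1.49, 1.63 and 1.81 in wild type, against -0.07, 0.02 and -0.08 in the mutant. It rose in wild type (1.65 ± 0.16, adjusted p = 1.34e-05), was not called in the mutant (-0.04 ± 0.057) and was lower there by 1.69 (-1.69 ± 0.12, SE, adjusted p = 0.000309).

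The Ran genes encode near-identical proteins, so their spots may share signal, which was not tested. GSP1, the main Ran gene, nevertheless fell alike in both strains (-0.69 ± 0.16 and -0.63 ± 0.030), with a strain difference of 0.05 ± 0.11 (SE, adjusted p = 0.731). Of the 8 Ran cycle genes, 2 rose and 6 fell in wild type, and 4 were higher and 2 lower in the mutant. YRB2, which encodes a Ran-binding cofactor of Crm1 export, had the highest ratio of the list in the mutant (0.87 ± 0.13).

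The largest strain differences of the wider list belonged to export of ribosomal precursors. All 7 genes of transfer RNA and pre-ribosome export fell in wild type, against 36.3% of all genes. Of them, 6 were higher in the mutant (85.7%, against 24.8% of all genes), with a median difference of 1.30. RRP12, needed for export of both ribosomal subunits, fell in wild type (-2.52 ± 0.17), stood at -0.15 ± 0.69 in the mutant and differed by 2.37 ± 0.32 (SE, adjusted p = 0.00162). NUG1, a GTPase of large-subunit export, fell in wild type (-2.17 ± 0.053) and differed by 1.79 ± 0.23 (adjusted p = 0.00141).

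Genes of messenger RNA export changed in both directions. Of 18, 3 rose and 10 fell in wild type (16.7% and 55.6%, against 29.7% and 36.3% of all genes). For the strain difference, 3 were higher and 2 lower in the mutant (16.7% and 11.1%, against 24.8% and 21.0% of all genes). NPL3, which encodes an export adaptor, rose in wild type (0.75 ± 0.16). HRP1 and YRA1, which encode messenger RNA-binding proteins, were the lowest of the list in the mutant (-2.12 ± 0.47 and -1.38 ± 0.15). YRA2, a relative of YRA1, was lower in the mutant by 0.70 (-0.70 ± 0.15, SE, adjusted p = 0.00941). Of 6 other pore and envelope genes, 4 fell in wild type (66.7%, against 36.3% of all genes). In the mutant 2 rose (33.3%, against 33.7% of all genes) and 2 were higher than in wild type (33.3%, against 24.8%). ESC1, which encodes a protein of the nuclear periphery, was among those that rose (0.81 ± 0.27).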

How the data were processed

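The deposited table holds, for each spot, a log ratio of the 2 channels made by the authors, read here as log2. Its base, sign and normalization: not given in the sources used here. The range of values and limma, which the submitters' processing notes name, point to base 2. Scanner intensities were not analysed here. Of 45220 spots, 28532 had a symbol, for 4073 genes, and the other 16688 are unnamed here. Old symbols (125) were updated through RefSeq (assembly R64, 4065 genes matched). Spots of a gene were averaged per array. All 6 arrays entered 1 fit with limma 3.58.1 in R 4.3.3, with a mean per strain (4 residual and 3.37 prior degrees of freedom). Benjamini-Hochberg adjustment ran over 4073 genes. The script was first tested on simulated data. For arrays, their number limits the precision.

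Members, gene lists and tests were chosen with earlier results of these data known. Every member is accounted for by role. Values on each array are given for the 3 highest and 3 lowest members in each strain, the 4 highest and 4 lowest strain differences and the duplicate pairs, and for other members added after their values were seen (NUP2, GLE1, NSP1, SXM1, MSN5 and NUP84). Of the wider list of transport genes, the 2 highest and 2 lowest called ones of each comparison are named. GSP1, LOS1, SEC13 and SEH1 were added after their values were seen. Alternatives were other centring, scaling, quantile normalization, spot medians, a filter on spot spread, removal of the length trend, robust moderation, a replicate block and leaving out each array.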

Additional observations from a re-analysis of the deposited data

Results flagged for a closer look

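The heat ratio differed between the strains, by the test of the strain difference itself (limma, adjusted p under 0.05), for 20 members, all higher in the mutant. The differences (log2, mutant minus wild type) of basket genes were 1.62 for MLP1, 1.30 for MLP2 and 0.93 for NUP2. Scaffold genes gave 1.42 for NUP53, 1.38 for NUP145, 0.73 for NUP170, 0.49 for NDC1, 0.43 for NUP157, 0.38 for NUP85 and 0.38 for POM34. Genes of the channel and the cytoplasmic side gave 0.86 for GLE1, 0.84 for NSP1, 0.67 for NUP116 and 0.43 for NUP100. Receptor genes gave 0.70 for MSN5, 0.59 for NMD5, 0.53 for MTR10, 0.53 for SXM1, 0.43 for CSE1 and 0.43 for KAP104. In each of these 20 genes all 3 mutant arrays lay above all 3 wild-type arrays, which held for 31.1% of all genes. This is no separate support, since the same values gave the calls. Groups of 3 arrays were not tested for outlying samples.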

How the results depend on the processing

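The count of 7 genes with opposite calls and that of 20 members higher in the mutant changed when single arrays were left out. Such a fit also estimates spread from fewer arrays, so a lost call alone does not show that a result rests on that array. Without mutant array 1, for example, the members' median strain difference was 0.37, against 0.32 with all arrays. Over fits that left out 1 array each, the members that rose in wild type numbered 2 to 4. Those that rose in the mutant numbered 10 to 18, those that fell in the mutant 7 to 16, and those higher in the mutant 10 to 21. Between 2 and 9 fell in wild type and rose in the mutant, and 5 to 15 fell in both strains. The members' median in the mutant ran from -0.03 to 0.12. The deleted genes HIS3, LEU2, MET17 and URA3 had a median of 0.15 over wild-type and -0.09 over mutant arrays, and the cause was not tested. With arrays centred on them, 1 member rose in wild type, 6 fell in the mutant, 6 fell in both strains and 27 were higher in the mutant, and the members' medians were -0.61 (wild type), 0.14 (mutant) and 0.56 (strain difference). That centring moved the median of all genes to -0.20, 0.10 and 0.26. With the length trend removed, the members' median in the mutant was -0.09 and 4 members were lower there, and quantile normalization gave 3 lower (KAP122, KAP123 and PSE1). Over all genes, 1012 were higher and 854 lower in the mutant, against 1564 and 398 with that centring, 643 and 450 without mutant array 1, and 480 and 507 lower without wild-type array 1 or 2. Deviations from the strain mean had correlations of -0.22, 0.21 and 0.418 between same-numbered arrays of the 2 strains. Between arrays of unlike number they ran from -0.476 to 0.455. With 3 arrays per strain, these values cannot decide whether the numbers pair the arrays. With a replicate block, 22 members were higher and 0 lower in the mutant, with a median difference of 0.32. The median strain difference of all genes, 0.02, was -0.03 with arrays centred on all genes and with quantile normalization, where 930 and 974 genes were higher and 965 and 1088 lower. The members' median difference stayed positive, at 0.23 to 0.56, under every alternative run. Dim spots could not be filtered, since signal over background was not analysed here.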

Other observations

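Several genes next to the pore that are no members had strain differences over 1 on the log2 scale, as 4 members did. They were singled out after their values were seen. ULP1, which encodes a SUMO protease tethered at the pore basket, read -0.64, -0.70 and -0.10 on wild-type arrays 1, 2 and 3, against 0.67, 0.51 and 0.90 on the mutant arrays in that order. Its order over arrays was that of MLP1, but mutant array 3 was the highest mutant array for 36 members. ULP1 fell in wild type, rose in the mutant and differed by 1.17 ± 0.19 (SE, adjusted p = 0.00304). SRM1, the exchange factor that loads Ran with GTP, read -0.86, -1.03 and -0.99 in wild type, against 0.29, 0.16 and 0.29 in the mutant, with a difference of 1.21 ± 0.10 (adjusted p = 0.000557). YRB1, a Ran-binding protein gene, differed by 1.27 ± 0.23 (adjusted p = 0.00442).

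Some neighbours in the pathway went the other way. NTF2, which encodes the import factor of Ran itself, read -0.90, -0.38 and -0.79 in wild type, against -1.47, -0.94 and -1.66 in the mutant. It fell in both strains and was lower in the mutant by 0.67 (-0.67 ± 0.22, SE, adjusted p = 0.0390). NAB2, whose product binds the basket protein Mlp1 and is imported by Kap104, fell in both strains (-0.21 ± 0.053 and -0.73 ± 0.11, SD, n = 3) and was lower in the mutant (-0.52 ± 0.10, SE, adjusted p = 0.00685). MEX67, the main export receptor of messenger RNA, rose alike in both (0.32 ± 0.065 and 0.35 ± 0.13), with a strain difference of 0.04 and a 95% interval of -0.22 to 0.29.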
